A study of Mus musculus with 4 samples.

Results

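The interferon-stimulated genes described here are 43 mouse genes chosen by name as targets of interferon signalling. Of these, 41 had at least 1 probe on the array, 25 with 1 probe and 16 with 2, which gave 57 probes and 66 spots out of 39429 probes for 20971 named genes. Mx1 and Mx2, the myxovirus resistance GTPases, had no named probe. The cells were RAW 264.7, a macrophage-like line from a BALB/c mouse tumour induced by Abelson leukaemia virus, so every group was the same transformed line. The groups were untreated cells and cells kept for 1, 4 or 6 h with Lactobacillus bulgaricus, a lactic acid bacterium of yogurt, at a multiplicity of infection of 10. Each group was 1 array of RNA pooled in equal amounts from 3 cultures, in which the RNA of the cells carried Cy5 and that of a reference, shared by all arrays and labelled as a pool of every group, carried Cy3.

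Type I interferons are secreted proteins that bind a receptor on nearby cells and, through the kinases JAK1 and TYK2, activate a complex that holds STAT2 and IRF9. That complex binds a promoter element called the interferon-stimulated response element (ISRE), while interferon gamma acts on the gamma-activated sequence (GAS). The genes switched on this way sense foreign nucleic acid, block viral replication and attach the ubiquitin-like protein ISG15 to other proteins, and macrophages keep many of them at a basal level that toll-like receptor ligands can raise.

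The response element can be read directly in the promoters of members. The 5 shown were picked because they hold the ISRE core and stand at different places in the results. Igtp and Irgm1 ended lowest among the immunity-related GTPases, and Gbp2 and Ifit3 did not end below untreated cells. The fifth, Isg15, encodes the ubiquitin-like protein. The core was searched as GAAANNGAAA and, on the other strand, TTTCNNTTTC, and the GAS element as TTCNNNGAA, which reads the same on both strands. Each line is an 80-base window upstream of the start site, 5′ to 3′ on the gene's strand, from the RefSeq promoters of GRCm38.p6, with matches to the ISRE core in capitals. The windows are chr11:58199476-58199555 on the + strand for Igtp, chr11:48871421-48871500 on the - strand for Irgm1, chr4:156200842-156200921 on the - strand for Isg15, chr3:142620579-142620658 on the + strand for Gbp2 and chr19:34583348-34583427 on the + strand for Ifit3.
Igtp: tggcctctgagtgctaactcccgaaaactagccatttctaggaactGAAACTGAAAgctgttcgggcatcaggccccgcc
Irgm1: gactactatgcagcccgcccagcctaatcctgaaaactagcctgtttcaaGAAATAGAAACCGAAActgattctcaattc
Isg15: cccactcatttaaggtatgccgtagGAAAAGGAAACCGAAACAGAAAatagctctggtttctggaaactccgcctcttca
Gbp2: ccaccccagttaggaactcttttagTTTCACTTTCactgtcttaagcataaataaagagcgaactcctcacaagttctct
Ifit3: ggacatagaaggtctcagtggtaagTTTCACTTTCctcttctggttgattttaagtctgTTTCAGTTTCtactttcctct

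The Isg15 window holds 3 overlapping matches in tandem, the Irgm1 window 2 overlapping matches, and the Ifit3 window 2 separate ones in the opposite orientation. In the promoter table, which runs from 250 bases before to 50 bases after each start, 31 members had an entry, and 12 had none: Oas2, Mx1, Mx2, Rtp4, Ifi204, Dhx58, Usp18, Parp9, Parp14, Zbp1, Iigp1 and Tor3a. Of the 31 members, 15 (48.4%) held the ISRE core in at least 1 promoter, against 3.99% of 27025 genes in the table, and 9 (29.0%) held GAS, against 9.55%. Counted by promoter, the ISRE core was in 15 of 40 member promoters (37.5%) and 3.44% of all 32851, and GAS in 22.5% and 8.3%. There were 23 ISRE matches in all, of which 20 lay upstream of the start, 17 of them 20 to 130 bases away, and 1 overlapped a GAS match. A match is a match of letters and was not tested for binding.

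In each comparison 38 of the 43 members were measured, meaning that at least 1 probe was well above background in both dyes on both arrays compared. No measured member rose at 1, 4 or 6 h, where rising or falling means a difference of at least 1 in the log2 ratio of Cy5 over Cy3 from the untreated array, except that median centring without loess, which put the median of all genes at 0.86 at 1 h, gave 11 members higher at that time. Most members lay below untreated cells from 4 h on, by amounts mostly under that size, and only Rtp4 at 4 h fell past it. Since each group was a single array of pooled RNA, these are differences between arrays with no replicate and no statistical test behind them. Probes spotted 10 times on each array gave an SD of 0.13 for a difference from the untreated array and 0.10 for a difference between treated arrays, an error of spotting and scanning that leaves out how far cultures differ.

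At 1 h 0 of 38 members were higher, against 0.328% of 10369 measured genes, and 0 were lower, against 0.0482%. A smaller size, a 1.5-fold change, took in no member either, higher (1.3% of all genes) or lower (0.463%). The median difference of the members was 0.06, the same as the median of all measured genes, and 10 of 38 were below 0, against 29.4% of all genes. At 4 h the median of the members was -0.29 and that of 10339 genes was 0.00. Below 0 were 31 of 38 members at 4 h, against 49.1% of all genes. The count of members lower was 1 (0.213% of all genes) and the count higher 0 (0.242%). By 1.5-fold, 7 of 38 members were lower at 4 h, against 1.4% of all genes, and 0 were higher, against 1.34%. The 7 were Rtp4, Xaf1, Oas2, Parp9, Samhd1, Ifi204 and Ddx58.

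At 6 h the median of the members was -0.37 and that of 10311 genes -0.01, with 31 of 38 members below 0 against 52.1% of all genes. No member was higher (0.456% of all genes) or lower (0.466%) by the log2 size of 1. The 1.5-fold size took in 9 members that were lower, against 3.38% of all genes, and 0 that were higher, against 2.03%. The 9 were Ifi204, Rtp4, Oas2, Igtp, Parp9, Parp14, Xaf1, Irgm1 and Ddx58, of which 6 were past that size at 4 h too. The medians of the members at 4 and 6 h stayed below 0 under the 11 alternatives tried. They ran from -0.54 to -0.21 at 4 h and from -0.63 to -0.25 at 6 h. The 1.5-fold size and Aquantile between arrays cannot move them by construction. The low ends came from the scanner's processed signals, which put the median of all genes at -0.12 at 4 h and -0.20 at 6 h. With those signals the 1 h median of the members turned to -0.09, and that of all genes was -0.09 too. Median centring without loess put the 1 h median of the members at 0.88, with 11 of 38 members higher by the size rule against 29.2% of all genes. The processed signals gave 8 members lower at 6 h, against 3.6% of all genes: Ifi204, Ifi44, Igtp, Irgm1, Oas2, Parp14, Parp9 and Rtp4. All 3 comparisons share the untreated array, so they are set side by side and not treated as repeats of each other.

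**Figure D1:**
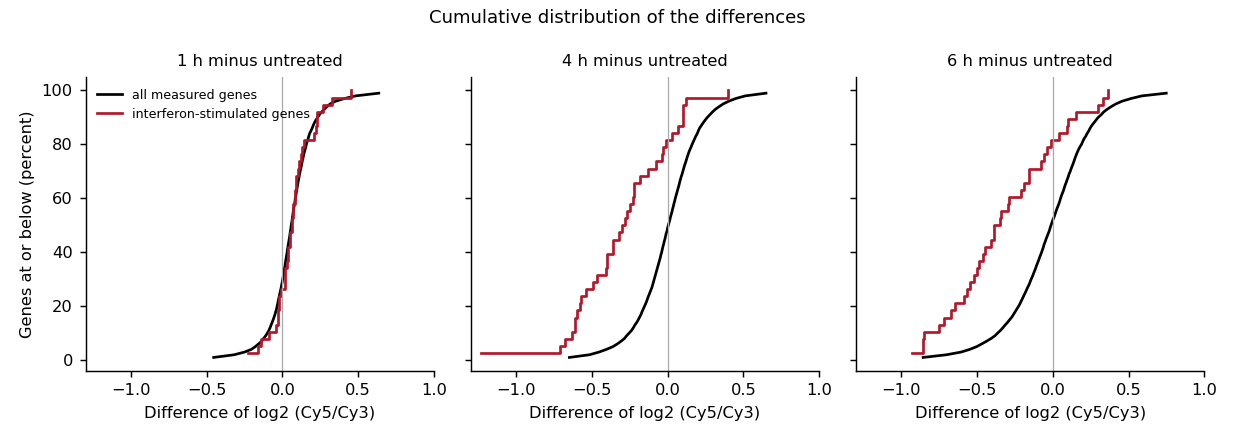
Cumulative share (percent) of genes at or below each difference of log2 Cy5/Cy3 from the untreated array, at 1, 4 and 6 h, for the 38 measured interferon-stimulated genes (red steps) and for all measured genes (black line, drawn from the 1st to the 99th percentile). The lines lie together at 1 h, and the red line lies to the left at 4 h (medians -0.29 and 0.00) and at 6 h (medians -0.37 and -0.01).

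The log2 ratios on each array show the same picture without a subtraction. Against the common reference, 26 of the 38 members were above 0 on the untreated array and 27 on the 1 h array, but 5 on the 4 h array and 5 on the 6 h array. Of all genes, 52.3%, 62.8%, 51.7% and 47.9% were above 0. The median ratio of the members was 0.07, 0.10, -0.23 and -0.24 on the untreated, 1, 4 and 6 h arrays. Over the 10110 genes measured on all 4 arrays it was 0.01, 0.06, 0.01 and -0.01. The untreated and 1 h arrays were thus the high ones for this group and the 4 and 6 h arrays the low ones. By member, 19 of 38 were above 0 at 1 h and below 0 at both 4 and 6 h, 10 were below 0 at all 3 times and 5 above 0 at all 3. The lowest of the 3 values was that of 6 h for 21 members, that of 4 h for 15 and that of 1 h for 2. How many of all genes follow such courses was not counted. All genes, too, lay below 0 less often at 1 h (29.4%) than at 4 h (49.1%) or 6 h (52.1%).

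Some facts of the arrays touch these values. Cy5 was well above background at 49.5% to 51.8% of spots and Cy3 at 43.5% to 45.4%, and no spot was saturated. Spot signal over local background averaged 49.9, 45.2, 39.7 and 34.8 in Cy5 on the untreated, 1, 4 and 6 h arrays. In Cy3 it averaged 37.6, 37.6, 33.6 and 33.1. The Cy5 average thus fell from each array to the next, and its part in the signals printed below was not tested. The arrays lay at 4 positions of 1 slide in the order of the times, and the effect of position cannot be told apart from that of time. Of 14 macrophage markers, 13 had a probe and 8 were well above background in Cy5 on all 4 arrays, among them Csf1r, Itgam, Lyz2 and Ptprc, while Cd68 had no probe and Cd14 no spot left after outliers. Of 5 T cell markers 3 (Cd3e, Cd3d and Lck) were well above background in Cy5 on all 4 arrays and Cd8a on none, with a summed Cy5 signal of 446.6 to 535.1. Of 4 B cell markers 1 (Cd79b) was, and Cd79a and Ms4a1 were above it on none, with a sum of 74.6 to 101.2. Of 5 markers of fibroblasts and endothelium 3 (Col1a2, Dcn and Pecam1) were above background on all 4 arrays, and Col1a1 and Cdh5 on none. That list summed to 171.4, 286, 578.4 and 439.4 in Cy5 on the untreated, 1, 4 and 6 h arrays, and the sum was largely that of Dcn. The sum was highest where the members were low. Its 2 measured genes, Col1a2 and Dcn, had a median difference of 0.04, 0.56 and 0.45. Col1a2 differed by -0.09, 0.36 and -0.04. Pecam1 did not follow the sum, with Cy5 signals of 40.4, 44.9, 32.6 and 33.9. Dcn, which encodes a matrix proteoglycan, differed by 0.17, 0.77 and 0.93, on Cy5 signals of 69.1, 160.3, 381.5 and 321.9. The 4 markers of plasmacytoid dendritic cells, which make interferon, were all above background, with a summed Cy5 signal of 4675, 4808, 3984 and 3758 and median differences of 0.08, -0.08 and -0.18. All 6 intestinal epithelium markers were brighter in the Cy3 reference, with a summed processed signal of 11830 to 14790 in Cy3 and 3468 to 4528 in Cy5. Their median difference from the untreated array was 0.46, 0.34 and 0.32 at 1, 4 and 6 h. Although the label calls the reference a pool of all groups, it was thus brighter in the sum of these genes than the cells of any group, and whether it holds RNA from another source was not tested. The part of these markers in the members' values was not tested, and fewer cells expressing a gene cannot be told apart from less RNA per cell in such bulk samples.

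Rtp4 was the member that moved furthest. It encodes a receptor-transporting protein that is induced by interferon and restricts some viruses. Its processed Cy5 signal was 3096, 3120, 1212 and 1597 on the untreated, 1, 4 and 6 h arrays. In the reference the Cy3 signal was 2804, 2678, 2674 and 2562. The Cy5 signal was therefore high on the untreated and 1 h arrays and low on the 4 and 6 h arrays, while the Cy3 signal of the same probe stayed within a narrow range. The log2 ratio was 0.15, 0.29, -1.08 and -0.71, and the difference from untreated was 0.14 at 1 h, -1.23 at 4 h and -0.86 at 6 h. At 4 h it ranked 10th from the lowest of 10339 measured genes, and at 6 h 102nd of 10311. Under the alternatives its 4 h difference ran from -1.41 to -1.04. At 6 h it stood 0.37 above its 4 h value, so that 4 h was the lowest of the arrays for Rtp4.

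**Figure D2:**
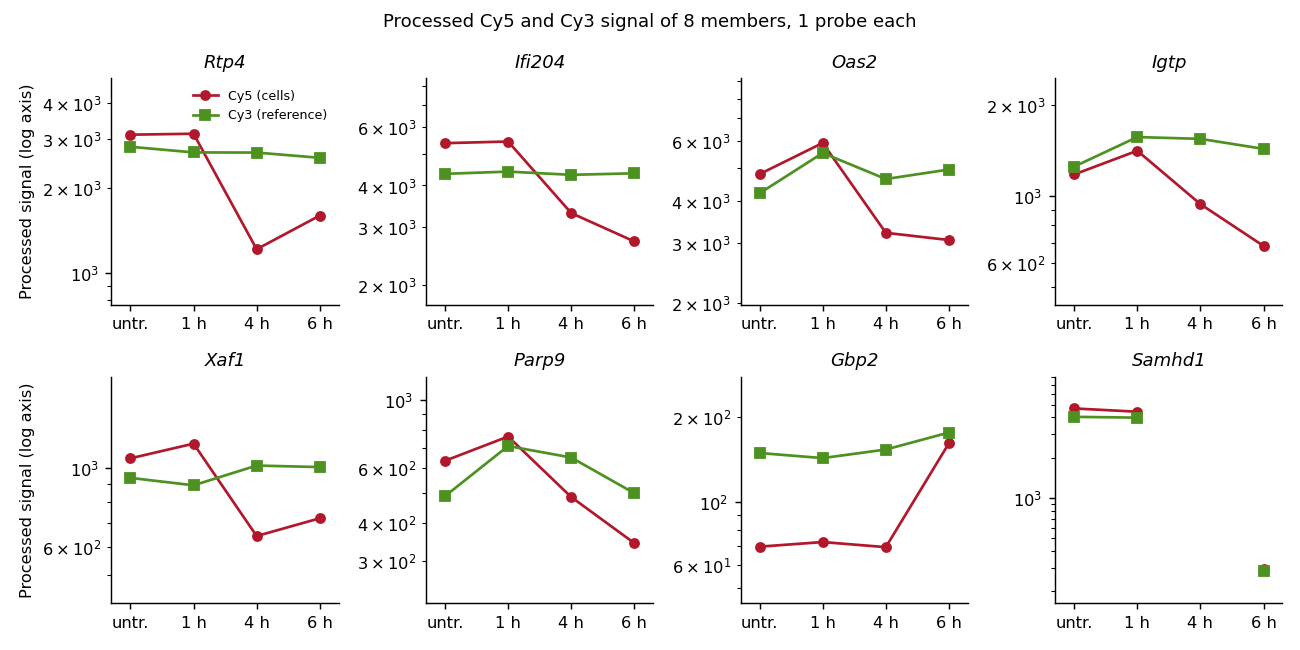
Processed signal (log axis) in Cy5, the cells (red circles), and in Cy3, the reference (green squares), on the untreated, 1, 4 and 6 h arrays for 1 probe each of 8 members. In Rtp4, Ifi204, Oas2, Igtp, Xaf1 and Parp9 the Cy5 signal was lower at 4 and 6 h than at 1 h; Gbp2 was brighter at 6 h (161.2) than on the other arrays, and the Samhd1 probe lost both channels together at 6 h, with its 4 h spot left out as an outlier.

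The RNA-directed effectors hold the IFIT proteins, which bind viral RNA, the exonuclease Isg20, the kinase Eif2ak2 (PKR), which stops translation on sensing viral RNA, the RNA-editing enzyme Adar and the nucleic acid sensor Zbp1. None of the 6 measured changed by the size rule at any time, and their median difference was 0.05, -0.23 and -0.13 at 1, 4 and 6 h. Adar was the lowest of them at 4 h (-0.36) and Zbp1 at 6 h (-0.45). Ifit2 was the highest at 6 h (0.33), on processed Cy5 signals of 67.2, 72.6, 74.4 and 65.7 and Cy3 signals of 54.1, 64.6, 71.0 and 34.9. The Cy5 signal of Ifit2 was much the same on the 4 arrays, and the low value was that of Cy3 at 6 h. Ifit3 differed by 0.27, 0.07 and 0.04, with Cy5 signals of 60.6, 78.8, 51.5 and 62.1. Isg20 differed by 0.12, -0.22 and 0.09 and Eif2ak2 by 0.02, -0.28 and -0.39. Ifit1 was not measured: its Cy5 signal was 40.5, 30.7, 33.5 and 16.4 and no longer well above background at 6 h, at least 1.06-fold lower than on the untreated array, and its Cy3 signal was above background on the 6 h array alone. These IFIT signals were dim in treated and untreated cells alike.

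The OAS proteins make short oligoadenylates on sensing viral RNA, which switch on the nuclease RNase L, while Oasl1 and Oasl2 are related proteins. All 5 were below 0 at 4 and at 6 h, except that Oas3 turned to 0.08 and 0.13 when Cy5 was taken alone and to 0.02 at 6 h in the deposited ratios. Their median was 0.06 at 1 h, -0.36 at 4 h and -0.46 at 6 h. Oas2 stood lowest, with Cy5 signals of 4795, 5925, 3218 and 3064 and Cy3 signals of 4210, 5535, 4638 and 4947 on the untreated, 1, 4 and 6 h arrays. Its Cy5 signal was highest at 1 h and lower at 4 and 6 h than in untreated cells, and its reference was highest at 1 h too. The difference of Oas2 was -0.09 at 1 h, -0.68 at 4 h and -0.86 at 6 h. Oasl1 differed by 0.06, -0.58 and -0.49 and Oasl2 by 0.11, -0.36 and -0.46. Oas3 had like signals on the 4 arrays, with Cy5 of 3541, 3870, 3387 and 3747 and differences of 0.07, -0.04 and -0.04. Oas1a, measured by 2 probes, differed by -0.14, -0.22 and -0.30.

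The RIG-I-like receptors sense viral RNA in the cytoplasm, with Ddx58 encoding RIG-I, Ifih1 encoding MDA5 and Dhx58 encoding LGP2. All 3 were above 0 at 1 h (median 0.09), though each gene turned below 0 in at least 1 alternative. At 4 h (median -0.32) and 6 h (median -0.52) all 3 were below 0, also in each of the 10 alternatives other than the 1.5-fold size. Of these, Aquantile between arrays leaves ratios as they are by construction. Ddx58 had Cy5 signals of 2006, 2241, 1448 and 1505 and Cy3 signals of 1828, 2027, 2093 and 2120. The 4 and 6 h arrays were the low ones in Cy5 and not in Cy3. Its difference was 0.08, -0.60 and -0.59. The second Ddx58 probe was not measured, being dim in Cy3 on every array. Its Cy5 was at least 1.26-fold lower at 6 h than on the untreated array. Its Cy3 signal was lower at 6 h too (15.6, against 39.6 untreated), and its ratio differed by 0.08, so its ratio did not fall. Dhx58 differed by 0.09, -0.32 and -0.52, with Cy5 signals of 652.5, 597, 355 and 299. Ifih1 differed by 0.22, -0.08 and -0.16.

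**Figure D3:**
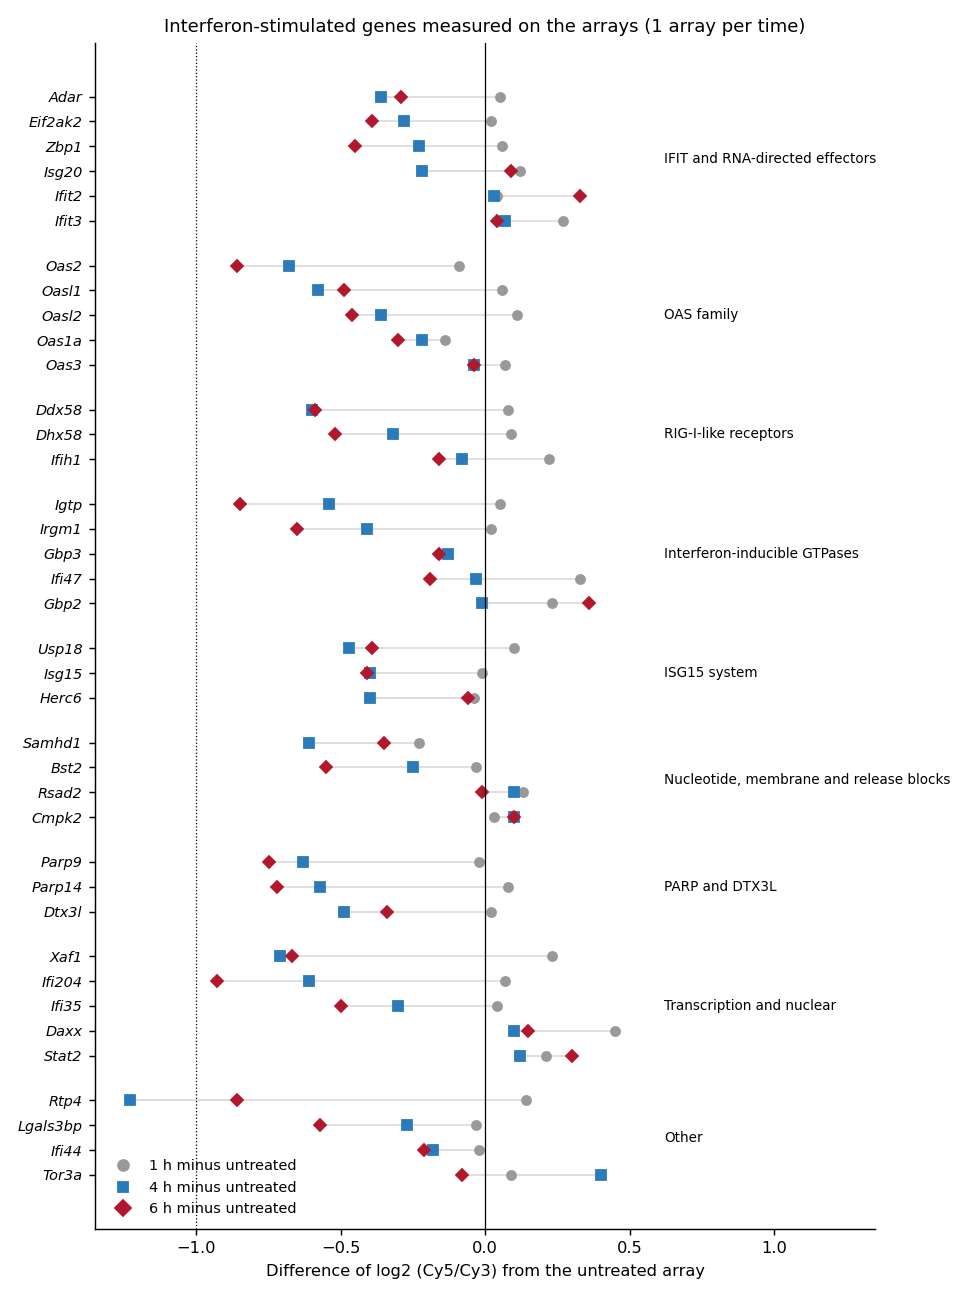
Difference of log2 Cy5/Cy3 from the untreated array for the 38 measured members, grouped by role, at 1 h (grey circles), 4 h (blue squares) and 6 h (red diamonds); the dotted line marks -1, the size at which a member counted as lower. Rtp4 at 4 h (-1.23) is the only point past the line, and most blue and red points lie left of 0 while most grey ones lie right of it.

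The interferon-inducible GTPases attack the vacuoles of intracellular pathogens and are strong targets of interferon gamma. They did not move together. Igtp (Irgm3) had 10 spots on each array and so has the most spots behind its value. Its mean log2 ratio was -0.06 ± 0.06 (SD over 10 spots) on the untreated array, 0.00 ± 0.08 at 1 h, -0.60 ± 0.05 at 4 h and -0.91 ± 0.04 over the 7 spots kept at 6 h. The spots ran from -0.66 to -0.51 at 4 h and from -0.97 to -0.84 at 6 h, against -0.13 to 0.04 on the untreated array. How many other probes spotted 10 times part between arrays in this way was not counted. Spot by spot the difference from untreated was 0.05 ± 0.11 at 1 h, -0.54 ± 0.05 at 4 h and -0.84 ± 0.07 at 6 h. In processed signal, Igtp gave 1180, 1414, 941 and 684.5 in Cy5 and 1253, 1569, 1548 and 1434 in Cy3. These spots share 1 RNA pool per array, so they measure the array and not the cultures.

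Irgm1, which regulates the other immunity-related GTPases, differed by 0.02 at 1 h, -0.41 at 4 h and -0.65 at 6 h over 2 probes. The 2 Irgm1 probes gave -0.40 and -0.42 at 4 h and -0.51 and -0.78 at 6 h. Both probes were thus lower at 6 h than at 4 h. Gbp2, a guanylate-binding protein, went the other way at 6 h, with Cy5 signals of 69.7, 72.4, 69.4 and 161.2 and Cy3 signals of 149, 143, 153 and 176. The 6 h array was the high one for Gbp2 in Cy5, and its difference was 0.23, -0.01 and 0.36. Gbp2 passed the size rule in none of the comparisons except from 4 to 6 h in the deposited ratios (1.02), where the value of the main processing was 0.37. Gbp3 differed by -0.16, -0.13 and -0.16 and Ifi47 by 0.33, -0.03 and -0.19. Iigp1, a target of interferon gamma that coats the vacuole of Toxoplasma, was not well above background in either dye on any array with either of its probes.

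In the ISG15 system, Isg15 is the ubiquitin-like modifier, Herc6 the ligase that attaches it in the mouse and Usp18 the protease that removes it and also damps the interferon receptor. The 3 genes had a median of -0.01 at 1 h, -0.40 at 4 h and -0.39 at 6 h. Isg15 had Cy5 signals of 3331, 4026, 2658 and 2739 and Cy3 signals of 3213, 4047, 3409 and 3580 on the untreated, 1, 4 and 6 h arrays. Both dyes were highest at 1 h, and Cy5 was lower at 4 and 6 h than in untreated cells. The difference of Isg15 was -0.01, -0.40 and -0.41. Usp18 differed by 0.10, -0.47 and -0.39, on Cy5 signals of 897.6, 922, 543 and 603. Herc6 differed by -0.04, -0.40 and -0.06 on Cy5 signals of 105.1, 68.0, 55.1 and 47.6, and its reference signal at 6 h was the lowest of the 4 at 38.9. In processed signals the 4 h difference of Herc6 was past the size rule at -1.07.

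The next genes block viruses through nucleotides and membranes: Samhd1 breaks down nucleotides that viruses need, Rsad2 (viperin) and Cmpk2 work on nucleotides too, and Bst2 (tetherin) holds budding virus at the cell surface. Rsad2 and Cmpk2, often among the most inducible genes of the pathway, were dim on every array. Rsad2 had Cy5 signals of 36.9, 44.8, 55.6 and 50.3 and differences of 0.13, 0.10 and -0.01, and Cmpk2 had Cy5 signals of 56.0, 63.2, 92.3 and 97.9 and differences of 0.03, 0.10 and 0.10. Neither changed by the size rule. Bst2 was bright, with Cy5 signals of 21340, 23920, 21380 and 18440, Cy3 signals of 16980, 19090, 18930 and 20570 and differences of -0.03, -0.25 and -0.55. Its Cy5 signal was lowest at 6 h, where its Cy3 signal was highest.

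Samhd1 differed by -0.23, -0.61 and -0.35, and its 2 probes need to be read apart. The first gave Cy5 signals of 4674 and 4416 on the untreated and 1 h arrays and 292.5 at 6 h, with Cy3 signals of 4044, 3988 and 282, and its 4 h spot was left out as an outlier. Both dyes of that spot were low together at 6 h, and its ratio differed from untreated by -0.16. The second gave Cy5 signals of 1977, 2300, 2407 and 2306 and Cy3 signals of 1338, 2441, 2564 and 2314, and differed by -0.50, -0.61 and -0.55. In this probe the low value was the Cy3 signal of the untreated array, and Cy5 alone was above untreated by 0.28, 0.35 and 0.29. The 4 h difference of Samhd1 rests on the second probe and on that reference value.

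Parp9 and Parp14 are ADP-ribosyltransferases and Dtx3l is the ubiquitin ligase that pairs with Parp9. All 3 were below 0 at 4 h and, with the ratio, at 6 h, with medians of -0.57 and -0.72, while Dtx3l stood at -1.03 at 4 h and turned to 0.73 at 6 h when Cy5 was taken alone. Parp9 had Cy5 signals of 634.8, 760, 484 and 344 and Cy3 signals of 488, 709, 650 and 498 on the untreated, 1, 4 and 6 h arrays. Its difference was -0.02, -0.63 and -0.75. The Cy3 signal of Parp9 stood 0.53 above untreated at 4 h and 0.26 at 6 h, and Cy5 alone was -0.10 at 4 h and -0.48 at 6 h. Parp14 had Cy5 signals of 610, 817, 384 and 224 and differences of 0.08, -0.57 and -0.72, with Cy5 alone at -0.44 and -0.98. The 6 h array was the lowest for both Parp genes. Dtx3l had Cy5 signals of 693.5, 608, 358 and 1551 and Cy3 signals of 720, 623, 582 and 2062, so that the 6 h array was high in both dyes, and its ratio differed by 0.02, -0.49 and -0.34. These values come from the only Dtx3l probe measured. The other was dim in Cy3 on all arrays but that of 1 h. Its Cy5 signals were 73.2, 85.9, 57.6 and 44.5, and thus not high at 6 h.

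Among the nuclear members, Ifi204 is a DNA-binding sensor of the HIN-200 family and was the lowest member at 6 h. Its Cy5 signal was 5375, 5437, 3299 and 2706 and its Cy3 signal 4339, 4407, 4309 and 4355 on the untreated, 1, 4 and 6 h arrays. The reference was level while the cells' signal was lower at 4 h and lower again at 6 h. The difference of Ifi204 was 0.07, -0.61 and -0.93, which ranked 74th from the lowest of 10311 genes at 6 h. Xaf1, a partner of the apoptosis inhibitor XIAP, had Cy5 signals of 1066, 1173, 643 and 721 and Cy3 signals of 938.5, 894, 1017 and 1007. Its Cy5 signal was low on the 4 and 6 h arrays, and it differed by 0.23, -0.71 and -0.67. Ifi35 differed by 0.04, -0.30 and -0.50. Stat2, the part of the transcription factor complex itself, stood above untreated at each time (0.21, 0.12 and 0.30), with Cy5 signals of 1024, 1141, 1217 and 1408. The chromatin chaperone Daxx was the highest member at 1 h (0.45), followed by 0.10 and 0.15. Sp100, a component of nuclear bodies, was not measured because its Cy3 signal was above background on the 1 h array alone, and its Cy5 signal was 62.6, 70.3, 55.3 and 57.6 on the 4 arrays.

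The last members have mixed roles. Lgals3bp, a secreted glycoprotein that binds galectin-3, differed by -0.03, -0.27 and -0.57, and its 2 probes gave -0.69 and -0.45 at 6 h. Ifi44 differed by -0.02, -0.18 and -0.21 on Cy5 signals of 66.2, 70.5, 25.7 and 20.1. These signals are near the offset of 50 that the background correction adds. The 6 h difference of Ifi44 was -1.22 in processed signals and -1.03 in the deposited ratios, which have no such offset and also differ in background correction and dye normalization, and its 4 h difference was -1.07 in processed signals. Tor3a, an ATPase of the endoplasmic reticulum, was the highest member at 4 h (0.40), between 0.09 at 1 h and -0.08 at 6 h. Its 2 probes gave 0.27 and 0.53 at 4 h.

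The 2 dyes were also read apart, since a ratio can move through the reference. Taken alone, Cy5 was below untreated in 27 of 38 members at 4 h (71.1%, against 43.3% of all genes) and in 29 at 6 h (76.3%, against 45.5%). The median Cy5 change of the members was -0.21 at 4 h and -0.34 at 6 h, and the median Cy3 change was 0.07 and 0.05. Over all measured genes Cy5 changed by a median of 0.05 and 0.04 and Cy3 by 0.04 and 0.07. For Rtp4, Cy5 alone fell by 1.04 at 4 h and stood at -0.81 at 6 h, beside Cy3 changes of 0.19 and 0.05. The reference moved by at least 1 in no member at 1 or 4 h and in 2 at 6 h, Samhd1 (-1.16) and Dtx3l (1.07), which is 5.26% of the members and compares with 2.56% of all genes. Leaving out genes whose reference moved so, the 6 h median of the remaining 36 members was -0.39.

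**Figure D4:**
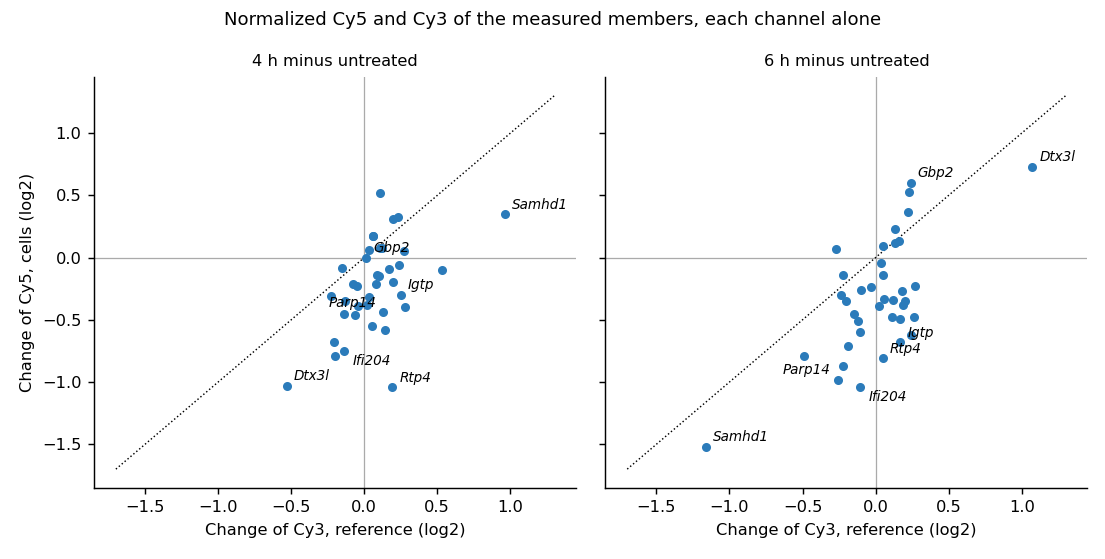
Change of the normalized Cy5 signal (cells) against that of the normalized Cy3 signal (reference), each in log2 from the untreated array, for the 38 measured members at 4 and 6 h; on the dotted line both dyes moved alike and the ratio did not change. Most points lie below the line with Cy3 near 0. Samhd1 (-1.16 in Cy3) and Dtx3l (1.07) at 6 h lie far from 0 in both dyes. They too lie below the line, with ratio differences of -0.35 and -0.34.

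Where a member had 2 measured probes, they could be set against each other on the same arrays, though they share the RNA. At 1 h 3 of 8 such genes had both probes on the same side of 0, with a median gap of 0.12. At 4 h 7 of 7 had, with a median gap of 0.25 and the largest at Adar (-0.58 and -0.13), and at 6 h 7 of 7 had, with a median gap of 0.25. Measured probes of a gene thus sided together at 4 and 6 h, though some pairs lay near 0, such as Tor3a at 6 h (-0.05 and -0.11). Pairs with a probe not measured were left out. Of those, some parted at 6 h, such as Isg15 (0.02 and -0.41), and others did not, such as Xaf1 (-0.22 and -0.67). How often probe pairs of all genes side together was not counted. The differences were then split by signal. Members with a mean log2 signal of 8 or more, 27 at 4 h, had a median of -0.40 and 7 of them (25.9%) were lower by 1.5-fold, against 1.63% of all genes as bright. The 11 dimmer members had a median of -0.08 and none was lower by 1.5-fold, against 0.729% of dim genes. At 6 h the medians were -0.47 for 28 bright and -0.03 for 10 dim members. The offset of 50 shrinks differences of dim probes, so small values there do not show that a gene held its level.

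Most members were lower at 4 h than at 1 h. Their median difference was -0.35, against -0.05 for 10537 genes, and 35 of 38 were below 0, against 62.3%. Rtp4 fell by 1.37 and was the 1 member lower by the size rule (0.38% of all genes), and none was higher (0.038%). By 1.5-fold 9 members were lower, against 1.68% of all genes, and 0 were higher, against 0.446%. Xaf1 came next at -0.95, followed by Ddx58 and Ifi204 at -0.68 each. From 4 to 6 h the median was -0.03, against -0.02 for 10505 genes, with 23 of 38 below 0 against 53.6%, and no member was higher (0.19% of all genes) or lower (0.143%). The 1.5-fold size took in 0 members higher (0.685%) and 0 lower (1.28%) in that step. The members furthest down in that step were Tor3a (-0.48), Ifi204 (-0.32) and Igtp (-0.31), and the furthest up were Rtp4 and Gbp2 (0.37 each) and Herc6 (0.34). Cy5 alone changed by 0.23 in Rtp4 and 0.60 in Gbp2. In Herc6 it changed by -0.09 and the reference by -0.44, so that its ratio moved up through the reference. The step from 1 to 4 h was thus the larger for the group.

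Between the earliest and the latest treated array the median of the members was -0.41, against -0.07 for 10496 genes, and 33 of 38 were below 0, against 61.5%. Ifi204 was the 1 member that passed the size rule, by a margin under the rounding used here, against 0.696% of all genes, and Rtp4 came just short of it. No member was higher, against 0.171% of all genes. Ifi204 missed the size in the deposited ratios (-0.99) and with Cy5 alone (-0.95). By 1.5-fold 10 members were lower, against 4.16% of all genes, and 0 were higher, against 0.819%. Igtp and Xaf1 stood at -0.90 each and Parp14 at -0.81. At the other end, Ifit2 was at 0.29 and Gbp2 at 0.14.

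The rest of the pathway was read from a list of 42 genes, of which 39 had a probe and 30, 30 and 29 were measured at 1, 4 and 6 h. Past the size rule were 0 at 1 h, 0 at 4 h and, at 6 h, 1 higher and 1 lower, against 0.456% and 0.466% of all genes. By 1.5-fold, 0 were past it at 1 h. At 4 h 1 was higher and 2 were lower, against 1.34% and 1.4% of all genes. At 6 h 1 was higher and 3 were lower, against 2.03% and 3.38%. The medians were 0.08, 0.00 and -0.18. The ligands came first: Ifnb1, Ifna1, Ifna2, Ifna4 and Ifng were not well above background in either dye on any array. The 4 receptor chains had a median of 0.08, 0.10 and -0.09, and the kinases Jak1, Jak2 and Tyk2 one of 0.08, 0.08 and 0.19. Neither the receptors nor the kinases passed the size rule at any time. Irf9, which works with STAT2 on the response element, had Cy5 signals of 2130, 2512, 1149 and 1284 and Cy3 signals of 1638, 2033, 1504 and 1744. Its Cy5 signal was low on the 4 and 6 h arrays like that of many members, and its difference was 0.04, -0.70 and -0.68. Irf7, the factor that amplifies interferon production, differed by 0.12, -0.34 and -0.18, and Irf1 by 0.10, 0.25 and 0.18.

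The 2 pathway genes past the size rule at 6 h went opposite ways. Cxcl10, a chemokine induced by interferon and by NF-kB, rose, with Cy5 signals of 301, 344, 508 and 560, Cy3 signals of 459, 479, 384 and 322 and differences of 0.24, 0.72 and 1.11. Its Cy5 signal was highest at 6 h and its reference lowest there, and Cy5 alone stood at 0.87. Trim25, the ubiquitin ligase that acts with RIG-I, fell by 1.57 at 6 h after -0.46 and -0.96. The Cy5 signal of Trim25 was 15630, 19200, 13670 and 9351 and its Cy3 signal 9540, 16540, 15960 and 18020. Part of that difference lay in the reference, which was low on the untreated array, and Cy5 alone stood at -0.94.

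The promoter matches were set beside the differences as a description. The 14 measured members with a match had a median of -0.18 at 4 h and -0.23 at 6 h, and the 15 with an entry and no match had -0.30 and -0.29. Both sets had members on either side, as the printed windows show: Igtp and Irgm1 with a match stood at -0.85 and -0.65 at 6 h, and Gbp2 and Ifit3 with a match at 0.36 and 0.04. Isg15, with 3 matches in tandem, stood between them at -0.41. Among the 15 without a match, Xaf1 (-0.67) was the lowest at 6 h and Ifit2 (0.33) the highest.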

How the data were processed

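Per the labels, RNA pooled from 3 cultures per group was labelled with Cy5 and a common reference with Cy3, with no dye swap. The scanner software was Agilent Feature Extraction, version 10.5.1.1, as the submitters' processing notes and, per the file headers, the files state. The deposited files give, per spot, uncorrected median intensity of spot and local background, processed signals (already corrected for background and dye by that software, per the file headers), flags, and a Cy5/Cy3 ratio in log10. The table deposited for the series holds the same log10 ratio (largest gap 0.00496), so its scale and direction are known. Other steps by the authors are not given in the sources used here.

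Median intensities were corrected by normexp (offset 50) and loess within each array in limma 3.58.1 under R 4.3.3; mean signals had been planned. Control spots had weight 0, and outlier spots (1.55% to 1.84% per array) were left out. A probe was measured when well above background in both dyes on both arrays (for repeated spots, in as many of them as not, or more), and a gene is the mean of its measured probes. Probes were named through accessions in a RefSeq table of GRCm38.p6; its annotation used mm9, and probe coordinates are not printed. At least 1 in log2 was the rule of size, over 6 comparisons and 11 alternatives. Named were all members past it, the extremes of each role at 4 and 6 h, members not measured or whose reference moved, and pathway genes past it; further members and pathway genes were named after their values were seen. The members and lists were chosen with earlier results of these data known. For simulated data, the untreated array was set against a copy with spot noise (16168 probes). The rule took in 22% of probes raised 2-fold, 88% at 3-fold and 98% at 4-fold, and 0 of 15968 left unchanged. Of probes lowered 2-fold it took in 18%, so it missed most simulated falls of that size. A 2-fold rise had a median of 0.81 and a 2-fold fall one of -0.78. Tables were made with pandas 2.3.3 and numpy 2.4.6 under Python 3.11.15, and plots with matplotlib 3.10.9. Single values of some genes on the pathway and marker lists are not reported here.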

Additional observations from a re-analysis of the deposited data

How the results depend on the processing

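No paired analysis was possible because each group had 1 array and the groups share fewer than 2 replicate numbers, and for the same reason no replicate could be left out. The values below follow the order of the text, and the cause of each change was not tested unless its construction shows it. Processed signals differ in offset, background correction and dye normalization. They put the median of the members at -0.09 at 1 h (from 0.06), -0.54 at 4 h, -0.63 at 6 h, -0.13 from 4 to 6 h and -0.56 from 1 to 6 h. In the same order they put the median of all genes at -0.09, -0.12, -0.20, -0.09 and -0.11. They gave 3, 8, 2 and 5 members lower at 4 h, at 6 h, from 1 to 4 h and from 1 to 6 h, against 1.38%, 3.6%, 1.15% and 2.72% of all genes. Median centring without loess moved the median of all genes to 0.86 at 1 h, -0.15 at 6 h, -0.83 from 1 to 4 h, -0.15 from 4 to 6 h and -0.98 from 1 to 6 h, and with it that of the members to 0.88, -0.56, -1.15, -0.14 and -1.42. It gave 11 members higher at 1 h and 4, 25 and 27 lower at 6 h, from 1 to 4 h and from 1 to 6 h, against 29.2% of all genes higher and 1.07%, 30.2% and 47.7% lower. The deposited ratios gave 1 member lower at 6 h (Ifi44; 1.89% of all genes), 2 from 1 to 4 h (1.09%), and 1 higher from 4 to 6 h (Gbp2; 0.743%). Cy5 alone gave 2 lower at 4 h, 2 at 6 h and 2 from 1 to 6 h, against 1.14%, 2.1% and 1.19% of all genes, and 1 higher (Dtx3l) from 4 to 6 h and from 1 to 6 h, against 1.05% and 1.13%. An offset of 10 gave 2 lower from 1 to 4 h and from 1 to 6 h, against 0.541% and 1.21%. With no filter on dim probes the medians were -0.25 from 1 to 4 h and -0.23 from 1 to 6 h over 41 members. The 1.5-fold size by construction gave more members lower: 7 at 4 h, 9 at 6 h, 9 from 1 to 4 h and 10 from 1 to 6 h, against 1.4%, 3.38%, 1.68% and 4.16%. Aquantile between arrays leaves ratios as they are by construction. Of 2275 values of single members under the alternatives other than the 1.5-fold size, 93 passed the size rule of 1 only in the alternative, 65 of them with median centring and 15 with processed signals. Of those 93, 3 passed it in the direction opposite to the main processing. A further 126 turned sign while short of that size, and 2 no longer passed it, both of Ifi204 from 1 to 6 h. Of the values past it in the main processing, 0 turned sign. Low signal limits the IFIT genes, Rsad2 and Cmpk2, whose differences were larger in some alternatives (Ifit3 at 1 h up to 0.69, Rsad2 and Cmpk2 at 4 h up to 0.41 and 0.40), and Iigp1 and Sp100 had no measured difference.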
